A study of Mus musculus with 11 samples.

Results

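The clustered protocadherins are 58 genes laid out in 3 neighbouring clusters on mouse chromosome 18, out of 46078 genes counted in each library. They were chosen by symbol: every gene named as a Pcdha, Pcdhac, Pcdhb, Pcdhga, Pcdhgb or Pcdhgc member on that chromosome was kept, whatever its counts. The rule used no measured value. It gave 14 genes of the a cluster (GRCm38, chromosome 18, 36930184 to 37187661), 22 of the b cluster (37264938 to 37524479) and 22 of the g cluster (37661793 to 37841873), all on the plus strand.

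Clustered protocadherins are cadherin-related adhesion proteins of the neuronal surface. Each neuron switches on a small, largely random set of their promoters, with CTCF and cohesin looping a distant enhancer to the chosen promoter and DNA methylation keeping others silent. The resulting mix of proteins binds only to a matching mix on another membrane, and this lets a neuron tell its own branches from those of its neighbours. The C-type members, Pcdhac1, Pcdhac2, Pcdhgc3, Pcdhgc4 and Pcdhgc5, are used more regularly than the other, alternate members.

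The study asked how L3mbtl3, a chromatin protein that reads methylated lysines, acts in the developing mouse cortex. Polyadenylated RNA was sequenced from 11 libraries of CD-1 mouse embryos in 5 groups. In the gain arm, wild-type embryos were electroporated in utero at E12.5 with the plasmid pCIG2-L3mbtl3 (3 libraries) or with pCIG2 alone (3 libraries, called GFP controls), and GFP-positive cells of the dorsal telencephalon were sorted at E15.5. In the loss arm, dorsal telencephalon was dissected at E12.5 from embryos labelled L3mbtl3 -/- (2 libraries, called KO-labelled), L3mbtl3 +/- (2 libraries) and wild-type (1 library), and the last 3 libraries were pooled as the E12.5 control. The age label of these groups reads embryonic day 15 and 12. A set of CD15-positive cells from E14.5 named in the design was not analysed here. Sorting kept electroporated cells and their progeny that still held the plasmid, so the gain arm describes cells that carry L3mbtl3 on top of their own copies. The labels do not say whether libraries came from separate embryos or how many embryos each holds. The spread behind every p-value is therefore that between libraries, and may be technical.

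The labels were checked against L3mbtl3 itself. It had 1517, 1261 and 892 CPM (counts scaled to library size) in the gain libraries, against 54.0, 50.0 and 59.5 CPM in the GFP controls. It had 67.1 and 70.4 CPM in the KO-labelled libraries, against 57.5 and 57.8 CPM in the heterozygous libraries and 58.1 CPM in the wild-type library. The libraries labelled knockout thus held more L3mbtl3 reads than their controls, not fewer (log2 fold change 0.27, SE 0.0539, adjusted p = 0.0128 by the quasi-likelihood test of edgeR, Benjamini-Hochberg), and they are called KO-labelled throughout. Where in the gene the deletion lies is not given in the sources used here, so reads outside it would check nothing. Library totals ran from 16527551 to 26658718 counts. GFP control libraries 1 and 3 differed most among replicates, with a chi-square per degree of freedom of 86.3 over all genes, against 8.93 to 13.3 among gain libraries, 10.3 between the KO-labelled libraries and 2.48 to 3.57 among the E12.5 controls. Xist had 51168, 38 and 48108 counts in gain libraries 1, 2 and 3, and 15 and 66223 in KO-labelled libraries 1 and 2, against at most 6 in the GFP controls and 35 in the E12.5 controls. Xist, transcribed in female cells, was thus high in 2 gain libraries and 1 KO-labelled library and in no control.

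The way reads were assigned to genes shapes what can be measured in each cluster. Every a member carries the same 2860 or more bases of 3′ exons, and every g member at least 2116 bases shared with other g members. The file headers record counting on the reverse strand with no setting that would count a read for several genes or at several places, so a read inside these shared exons was given to no member. The counts of a and g members therefore come from their own first exons. The part of the exonic length shared with no other gene on the strand had a median of 46.4% in the a cluster (8.56% to 61.1%) and 55.3% in the g cluster (33.2% to 68.5%). In the b cluster 18 of 22 genes are a single exon, and all but Pcdhb21 and Pcdhb22, which overlap each other by 455 bases, share nothing (median 100%). The b genes are for that reason given apart. Reads that fit several near-identical b genes equally well would be lost as well, so counts of close paralogs are uncertain. The symbol Pcdha11 stands on 2 identifiers: the upstream (ENSMUSG00000007440, from 37005203), at whose start RefSeq of the same build lists Pcdha10, and the downstream (ENSMUSG00000102206, from 37010712). Pcdha4 has only 494 bases of its own, since the shared 3′ exons and the readthrough entry Gm42416 cover the rest. Its counts of at most 2 per library say nothing of its expression.

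All 58 members together took 0.0488% to 0.0541% of the counts in the gain libraries, 0.0434% to 0.0465% in the GFP controls, 0.0226% to 0.0238% in the KO-labelled libraries and 0.0236% to 0.0260% in the E12.5 controls. In the g cluster all 22 members had at least 10 counts in each of the 11 libraries. In the b cluster 20 of 22 did, and in the a cluster 6 of 14. Members with at most 5 counts in every library were Pcdha1, Pcdha4 and Pcdhb1. A count of 0 allows up to 3 counts, or 0.105 to 0.177 CPM depending on the library, for counting error only.

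Levels compared between genes are CPM per kilobase of unshared exon. In the GFP controls Pcdhgc3, the C-type member that steers dendrite branching in mouse cortex, stood far above the rest. It had 139, 135 and 156 CPM, a mean of 42.3 CPM per unshared kilobase, while the next g members, Pcdhgb7 and Pcdhgb6, had 10.1 and 7.81. Of all g counts, Pcdhgc3 alone held 39.4% to 45.0% in GFP control libraries and 32.2% to 35.6% in E12.5 control libraries. The 3 lowest g members were Pcdhgb8 at 0.435, Pcdhgc5 at 0.876 and Pcdhga5 at 1.24 CPM per unshared kilobase. Pcdhgc4, the C-type member that protects neurons from cell death in mouse, had 3.91, near the cluster's median of 2.99. C-type members were thus both at the top and near the bottom of the g cluster.

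In the a cluster Pcdhac2, the C-type member that spaces serotonergic axons in mouse, was highest in the GFP controls at 4.20 CPM per unshared kilobase (11.6, 13.1 and 13.5 CPM). Pcdha12 followed at 2.42 and the upstream Pcdha11 at 1.43, against a cluster median of 0.809. Among members with counts, Pcdha1, Pcdha8 and Pcdha3 were lowest, at 0.0337, 0.151 and 0.557. Pcdhac1 had 0.999. Levels tended to be higher toward the 3′ end of the a cluster, with a Spearman coefficient of 0.75 between level and order over the 14 members, given as a description of these libraries.

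The b cluster had its highest members in 2 places, at Pcdhb7 (3.11 CPM per unshared kilobase in the GFP controls) and at Pcdhb17 and Pcdhb20 (3.07 and 2.04) near the 3′ end. The values of Pcdhb7 were 10.3, 10.02 and 12.4 CPM and those of Pcdhb17 were 12.0, 12.4 and 18.6 CPM, so the order of these top members is within their spread. Pcdhb1, at 0 or 1 count in each GFP control, was lowest, followed by Pcdhb14 at 0.259 and Pcdhb12 at 0.295. Pcdhb14 lists the longest exon of the cluster, 8695 bases, so its level per kilobase depends on that model. The order of members in the GFP controls resembled that in the E12.5 controls, with Spearman coefficients of 0.96 over 14 a genes, 0.91 over 22 b genes and 0.82 over 22 g genes. These points share their gene lengths and their annotation.

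**Figure D1:**
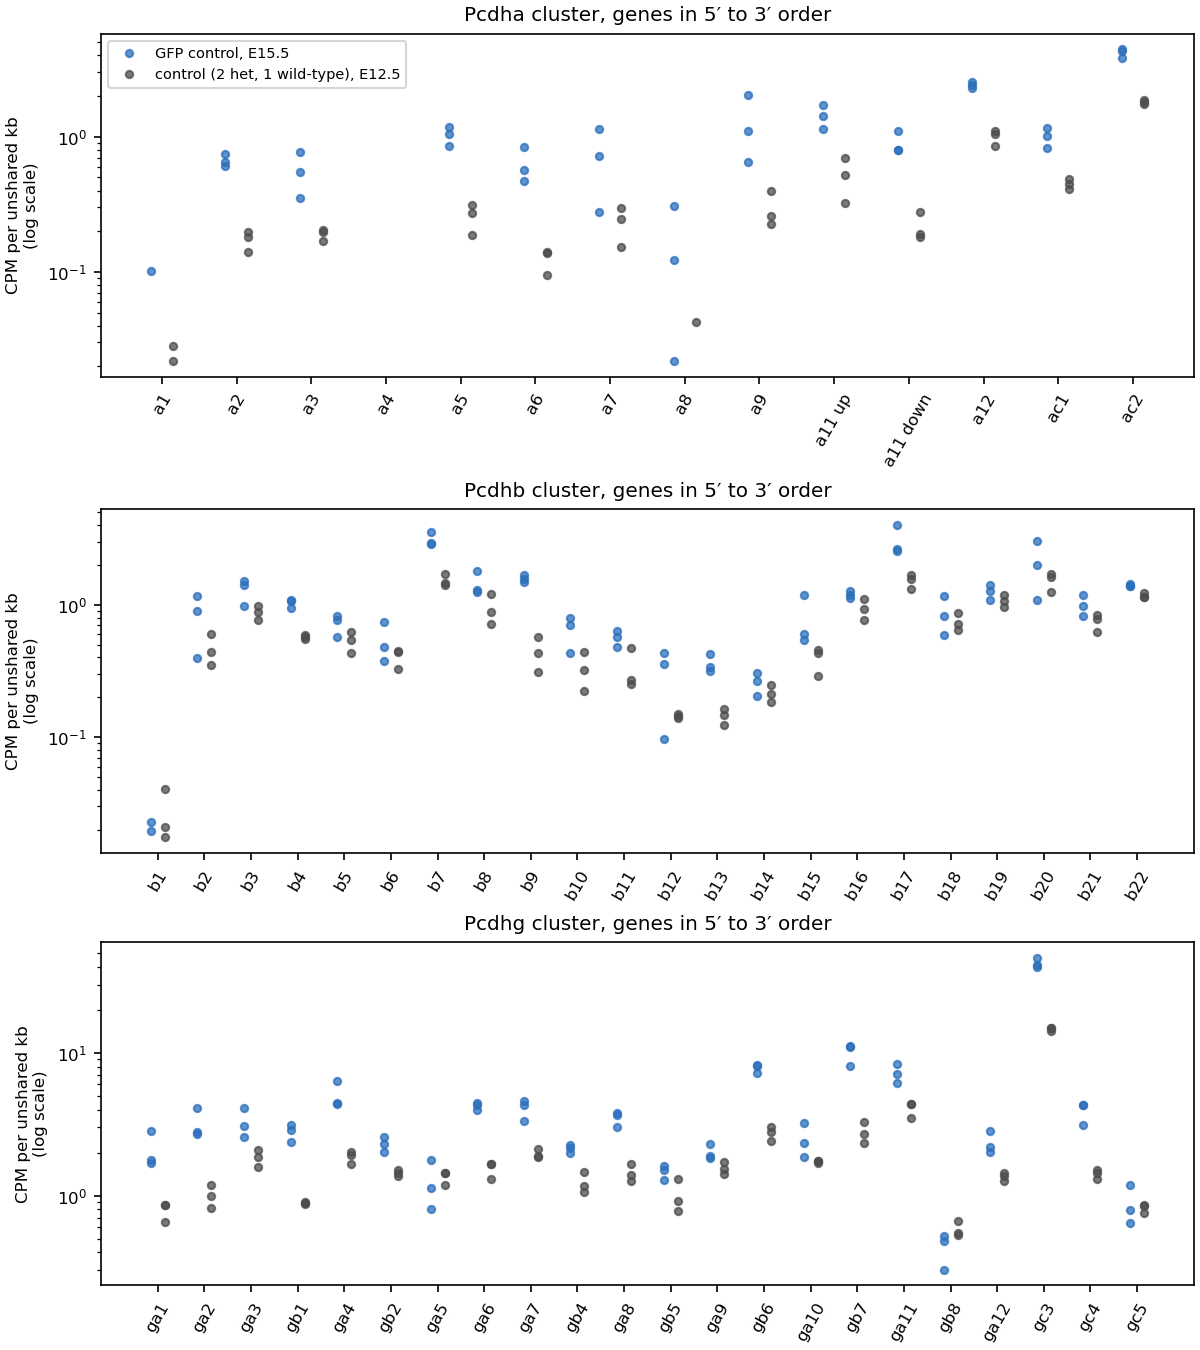
Level of each clustered protocadherin in CPM per unshared kilobase (log scale) against its order in the a, b and g clusters, with a point for each of 3 E15.5 GFP control and 3 E12.5 control libraries; libraries at 0 are not drawn. Pcdhgc3 tops the g cluster at a mean of 42.3 in the GFP controls, Pcdhac2 the a cluster at 4.20, and the b cluster has its highest members at Pcdhb7 and Pcdhb17.

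L3mbtl3 gain was compared with GFP alone in sorted E15.5 cells. No member passed the test in the gain libraries, and 2 of 14698 genes did so overall (0.0136%), L3mbtl3 among them. Without a call, 20 of the 21 tested b genes had a fold change above 0, against 45.5% of all tested genes. These genes are neighbours measured in the same libraries, so their number is a description and not separate evidence. The summed level of the 22 b genes was 155, 132 and 157 CPM in the gain libraries, against 96.0, 106 and 102 CPM in the GFP controls. The a sum was 45.2, 42.8 and 39.9 CPM in the gain libraries, against 39.9, 44.1 and 39.0 CPM in the GFP controls, and the g sum was 381, 357 and 350 CPM, against 352, 339 and 347 CPM. The groups overlapped for the a and g sums and not for the b sum.

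The b difference was uneven along the cluster. Over the 9 genes at the 3′ end, Pcdhb14 to Pcdhb22, the summed level was 98.1 ± 12.4 CPM in the gain libraries and 58.4 ± 4.08 CPM in the GFP controls (SD, n = 3 each). Over Pcdhb1 to Pcdhb13 it was 49.8 ± 1.84 CPM in the gain libraries and 43.0 ± 3.03 CPM in the GFP controls. The boundary between these stretches was drawn after the values were seen, so the split is a description. Log2 fold changes ran from 0.49 to 1.03 in the 9 downstream genes and from -0.40 to 0.84 in the 12 tested upstream genes. Fold change and order had a Spearman coefficient of 0.77 over the 21 genes, and fold change and exonic length 0.53. Over all 14698 genes fold change also moved with exonic length (0.26). With that length trend taken out in each library, a setting added after the data were seen, the b median was 0.48 against 0.49 without it.

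Pcdhb16 (ENSMUSG00000047910, chromosome 18, 37477814 to 37483038, a single exon) had the smallest p of the members. It had 13.9, 9.43 and 12.4 CPM in the gain libraries, against 6.23, 6.66 and 5.83 CPM in the GFP controls, from 181 to 264 counts and 108 to 124 counts. The groups did not overlap, and the log2 fold change was 0.94 (SE 0.202, unadjusted p = 0.00211, adjusted p = 0.457 by edgeR). Pcdhb22 had 14.6, 12.46 and 14.2 CPM in the gain libraries, against 8.60, 8.90 and 8.48 CPM in the GFP controls (log2 fold change 0.67, SE 0.153). Its replicates lay close together, and every gain library was above every GFP control. Pcdhb19 had 14.9, 12.1 and 20.4 CPM in the gain libraries, against 9.10, 10.1 and 7.78 CPM in the GFP controls (0.82, SE 0.230). The adjusted p was 0.463 for Pcdhb22 and 0.491 for Pcdhb19 by edgeR.

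Of the 21 tested b genes, 7 had all gain libraries above all GFP controls (Pcdhb14, Pcdhb16 and Pcdhb18 to Pcdhb22), where 9.21% of all tested genes did. Pcdhb4 alone had them all below (7.38% of all genes), at 3.16, 2.45 and 3.08 CPM in the gain libraries, against 4.02, 3.95 and 3.51 CPM in the GFP controls. An unadjusted p under 0.05 was reached by 6 b genes, all higher (Pcdhb14, Pcdhb16, Pcdhb18, Pcdhb19, Pcdhb20 and Pcdhb22), against 4.92% of all genes in that direction. After adjustment over all genes none remained under 0.05, and the lowest adjusted p of a b gene was 0.457. DESeq2 called 2 of them, Pcdhb16 and Pcdhb22, among 122 genes. Limma voom with quality weights called 5, Pcdhb12, Pcdhb16, Pcdhb17, Pcdhb18 and Pcdhb22, among 2120 genes (14.4%). Leaving out each library in turn gave no b call by edgeR. The b median was then between 0.40 and 0.64, at 0.41 and 0.48 without GFP control libraries 1 and 3, which differed most.

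**Figure D2:**
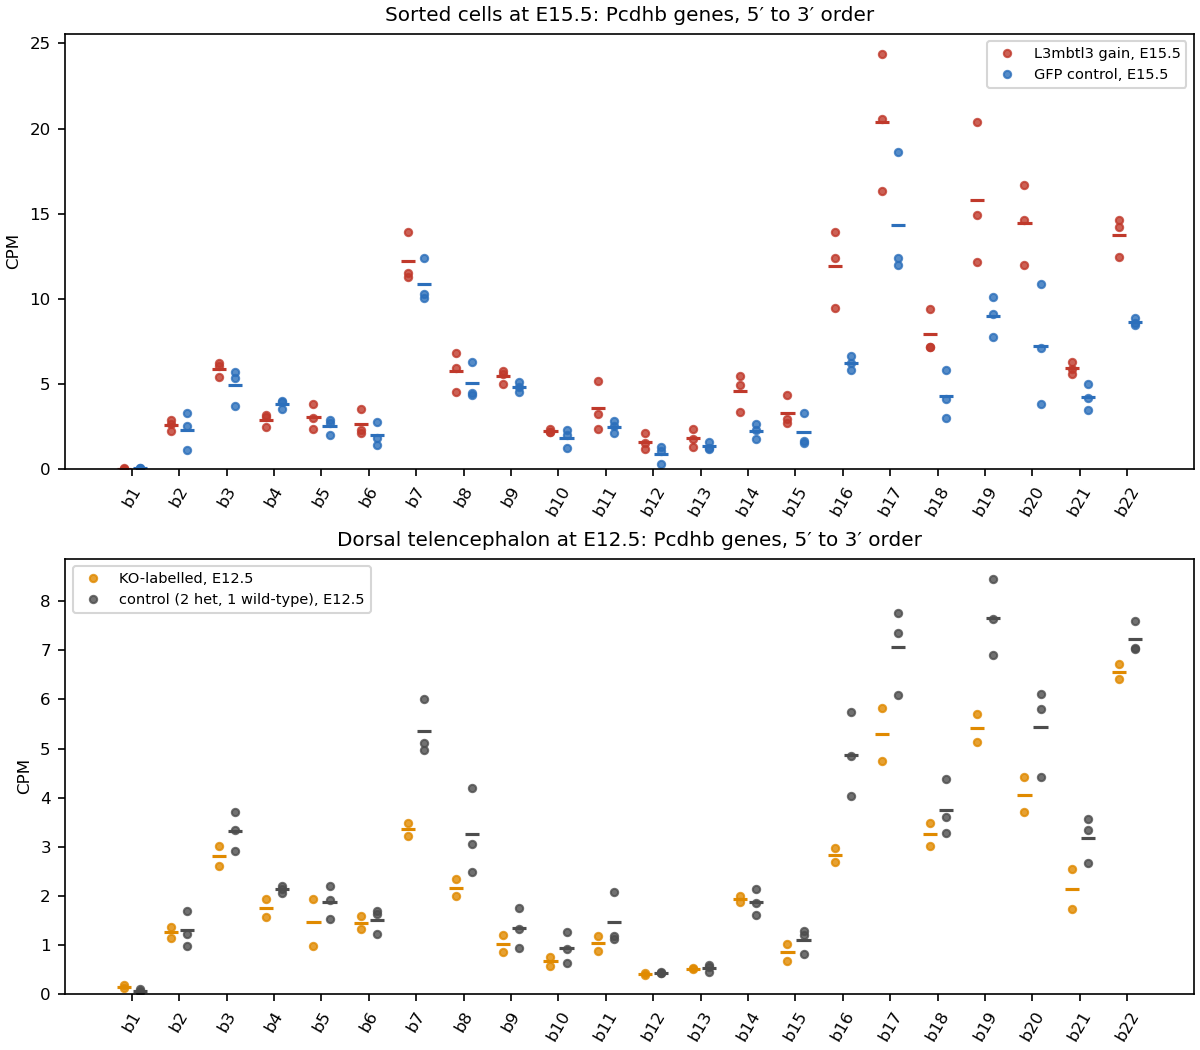
CPM of each b gene in every library, in 5′ to 3′ order, for gain and GFP control libraries (upper panel) and for KO-labelled and E12.5 control libraries (lower panel); points are libraries and short lines are group means. The gain libraries all lie above the GFP controls for 7 of 21 tested genes (9.21% of all genes), each from Pcdhb14 on, and all below for Pcdhb4. The KO-labelled libraries lie below all their controls for 9 of 20 tested genes (22.3% of all genes), of which Pcdhb7 and Pcdhb16 were called.

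The a and g members lay closer to 0. Fold changes of the 12 tested a genes had a median of 0.11 and those of the 22 g genes a median of 0.04, against -0.03 over all genes. The smallest p values of the a cluster belonged to Pcdha3 (log2 fold change 0.73, SE 0.423), the upstream Pcdha11 (0.28, SE 0.257) and Pcdha8 (0.67, SE 0.853). Groups did not overlap for 1 of the 22 g genes, where all gain libraries were higher for 9.21% of all genes. This was Pcdhgb8, at 1.74, 1.77 and 2.17 CPM in the gain libraries, against 1.21, 1.30 and 0.756 CPM in the GFP controls. Its log2 fold change was 0.80 (SE 0.352, adjusted p = 0.585 by edgeR), and those of Pcdhga12 and Pcdhga5 were 0.38 (SE 0.183) and 0.62 (SE 0.345). The C-type members lay between -0.20 (Pcdhac1) and 0.25 (Pcdhgc5). Pcdhgc3 had 154 ± 2.48 CPM in the gain libraries and 143 ± 11.5 CPM in the GFP controls (SD, n = 3 each; log2 fold change 0.11, SE 0.0886). Whether the b cluster differs from the a and g clusters in its response was not tested.

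Other values moved with the gain libraries. All 7 tested microglial markers, all 7 endothelial and all 5 meningeal markers had fold changes below 0, with medians of -2.37, -1.53 and -1.79. Summed microglial markers were 5.69 to 8.34 CPM in the gain libraries and 14.7 to 36.0 CPM in the GFP controls, so both groups held few such reads. All 5 tested erythroid markers were also below 0 (median -0.94). Of 4 tested choroid plexus markers 3 were below 0 and 1 above (median -0.51). Of 4 tested Cajal-Retzius markers 3 were below 0 and 1 above (median -0.74). None of these was called, and the summed levels of each of these lists overlapped between the groups. Ventral telencephalic and GABAergic markers had a median of -1.03, from 46.9 to 300 CPM in the gain libraries and 41.4 to 1021 CPM in the GFP controls. The 16 pan-neuronal markers had a median of -0.03 and the 10 apical progenitor markers one of -0.17, with no call among them. The part of these, or of Xist, in the b values was not tested. In bulk samples, fewer cells that use a promoter and less RNA per cell cannot be told apart, here or below.

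**Figure D3:**
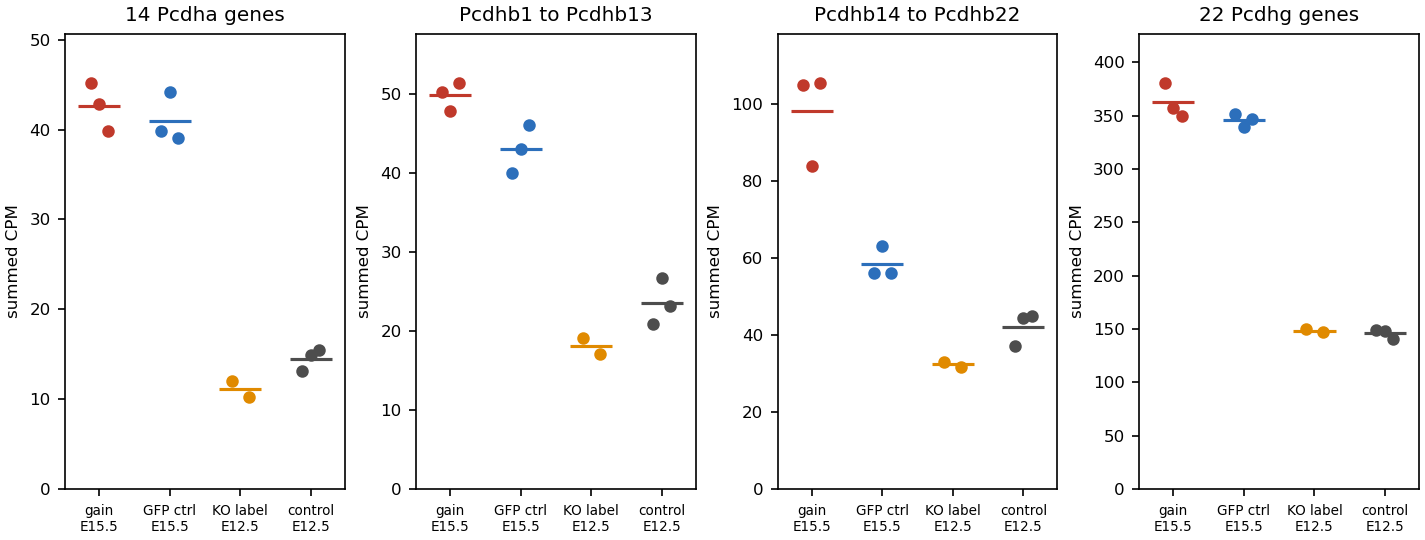
Summed CPM of the a genes, of Pcdhb1 to Pcdhb13, of Pcdhb14 to Pcdhb22 and of the g genes in each library, by group; points are libraries and lines are group means. Gain and GFP control libraries are apart for both b stretches, most for Pcdhb14 to Pcdhb22 (98.1 ± 12.4 against 58.4 ± 4.08 CPM), and the KO-labelled libraries are apart from the E12.5 controls for the a sum and both b sums.

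The KO-labelled tissue was set against the E12.5 controls to ask what loss of L3mbtl3 does, with the doubt on the label given above. Pcdhb7 and Pcdhb16 fell, and 18 of the 20 tested b genes had fold changes below 0, with a median of -0.36, where 49.9% of all genes were above 0. Among the 10 tested a genes 9 were below 0, with a median of -0.35 and no call, while the 22 g genes were split (12 above and 10 below 0, median 0.03). Here too the genes share their libraries, so these numbers of genes are a description. The summed b level was 51.9 and 48.9 CPM in the KO-labelled libraries, against 58.02 and 71.2 CPM in the heterozygous libraries and 67.9 CPM in the wild-type library. The a sum was 12.0 and 10.3 CPM in the KO-labelled libraries, against 13.2, 14.9 and 15.48 CPM in the controls. The g sum was 150 and 147 CPM in the KO-labelled libraries, against 149, 148 and 141 CPM in the controls.

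Pcdhb7 (ENSMUSG00000045062, chromosome 18, 37341702 to 37345202, a single exon) had 3.49 and 3.23 CPM in the KO-labelled libraries, against 5.12, 6.01 and 4.98 CPM in the controls. Both KO-labelled libraries, at 79 and 76 counts, were below every control, at 109 to 146 counts (log2 fold change -0.65, SE 0.160, adjusted p = 0.0309 by edgeR). Pcdhb16 had 2.70 and 2.97 CPM in the KO-labelled libraries, against 4.03, 5.74 and 4.84 CPM in the controls. Its groups were apart too, at 61 and 70 counts in the KO-labelled libraries and 105 to 115 counts in the controls (-0.75, SE 0.194, adjusted p = 0.0386 by edgeR). The 2 calls stand against 3.78% of all 16361 tested genes that fell (7.41% called in either direction). All KO-labelled libraries were below all controls for 9 b genes (Pcdhb4, Pcdhb7, Pcdhb8, Pcdhb16, Pcdhb17 and Pcdhb19 to Pcdhb22), where 22.3% of all genes were.

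Both calls depended on single libraries. No b gene was called without heterozygous library 2, without KO-labelled library 2, or without the wild-type library, while 1 was called without KO-labelled library 1 and 3 without heterozygous library 1. Over these fits Pcdhb7 lay between -0.71 and -0.57 with adjusted p from 0.0450 to 0.164, and Pcdhb16 between -0.89 and -0.62 with adjusted p from 0.0192 to 0.116. DESeq2, limma voom with quality weights and a joint fit of all 11 libraries called no b gene. Of all genes, DESeq2 called 5.89% and voom 6.04%, against 7.41% in the reported fit. The joint fit called 6 of 17793 genes (0.0337%), so it called few genes of any kind. Pcdhb19 missed the threshold (-0.48, SE 0.143, adjusted p = 0.0660 by edgeR). Pcdhb14, one of the b genes that stood higher in the gain libraries, had 1.99 and 1.87 CPM in the KO-labelled libraries, against 1.61, 1.86 and 2.15 CPM in the controls.

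Among C-type members, Pcdhac2 had 4.42 and 3.14 CPM in the KO-labelled libraries, against 5.29, 5.68 and 5.52 CPM in the controls (log2 fold change -0.52, SE 0.171, adjusted p = 0.0919 by edgeR). Over the fits with a library left out it lay between -0.79 and -0.29. The value of -0.79 came without KO-labelled library 1 and thus rests on 1 KO-labelled library. Pcdhac1 was also apart from its controls, at -0.41 (SE 0.283), and the upstream Pcdha11 was at -0.48 (SE 0.358). Groups were apart and lower for 2 of the 10 tested a genes, near the 22.3% of all genes. Pcdhgc3 had 48.4 and 44.5 CPM in the KO-labelled libraries, against 48.1, 50.6 and 50.0 CPM in the controls (-0.08, SE 0.0627). Pcdhgc4 was at -0.01 and Pcdhgc5 at -0.21. In the g cluster the smallest p values went in both directions. Pcdhga11 was at 0.33 (SE 0.114, adjusted p = 0.107 by edgeR) and Pcdhga6 at 0.38 (SE 0.180), while Pcdhga1 was at -0.53 (SE 0.234). Of the 22 g genes, Pcdhga4, Pcdhga10 and Pcdhga11 had both KO-labelled libraries above every control, where 14.4% of all genes did. Pcdhga1 and Pcdhgc5 had both below, where 22.3% of all genes did. These numbers of g genes are near or below the shares of all genes.

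Cell type markers moved with this comparison as well, where 594 of all 16361 tested genes rose and 619 fell. Of 16 pan-neuronal markers 6 fell (median -0.23), with summed levels of 2293 to 2527 CPM in the KO-labelled libraries and 2671 to 2887 CPM in the controls. Of 8 choroid plexus markers 6 fell (median -1.06), with sums of 260 to 263 CPM in the KO-labelled libraries and 563 to 619 CPM in the controls. Of 10 ventral telencephalic markers 4 rose (median 0.81), and of 10 apical progenitor markers 2 fell (median 0.08). Markers of microglia, endothelium, meninges, blood and Cajal-Retzius cells, 6 to 8 genes each, gave no call, with medians between -0.12 and 0.07. The part of these shifts in the protocadherin values was not tested.

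**Figure D4:**
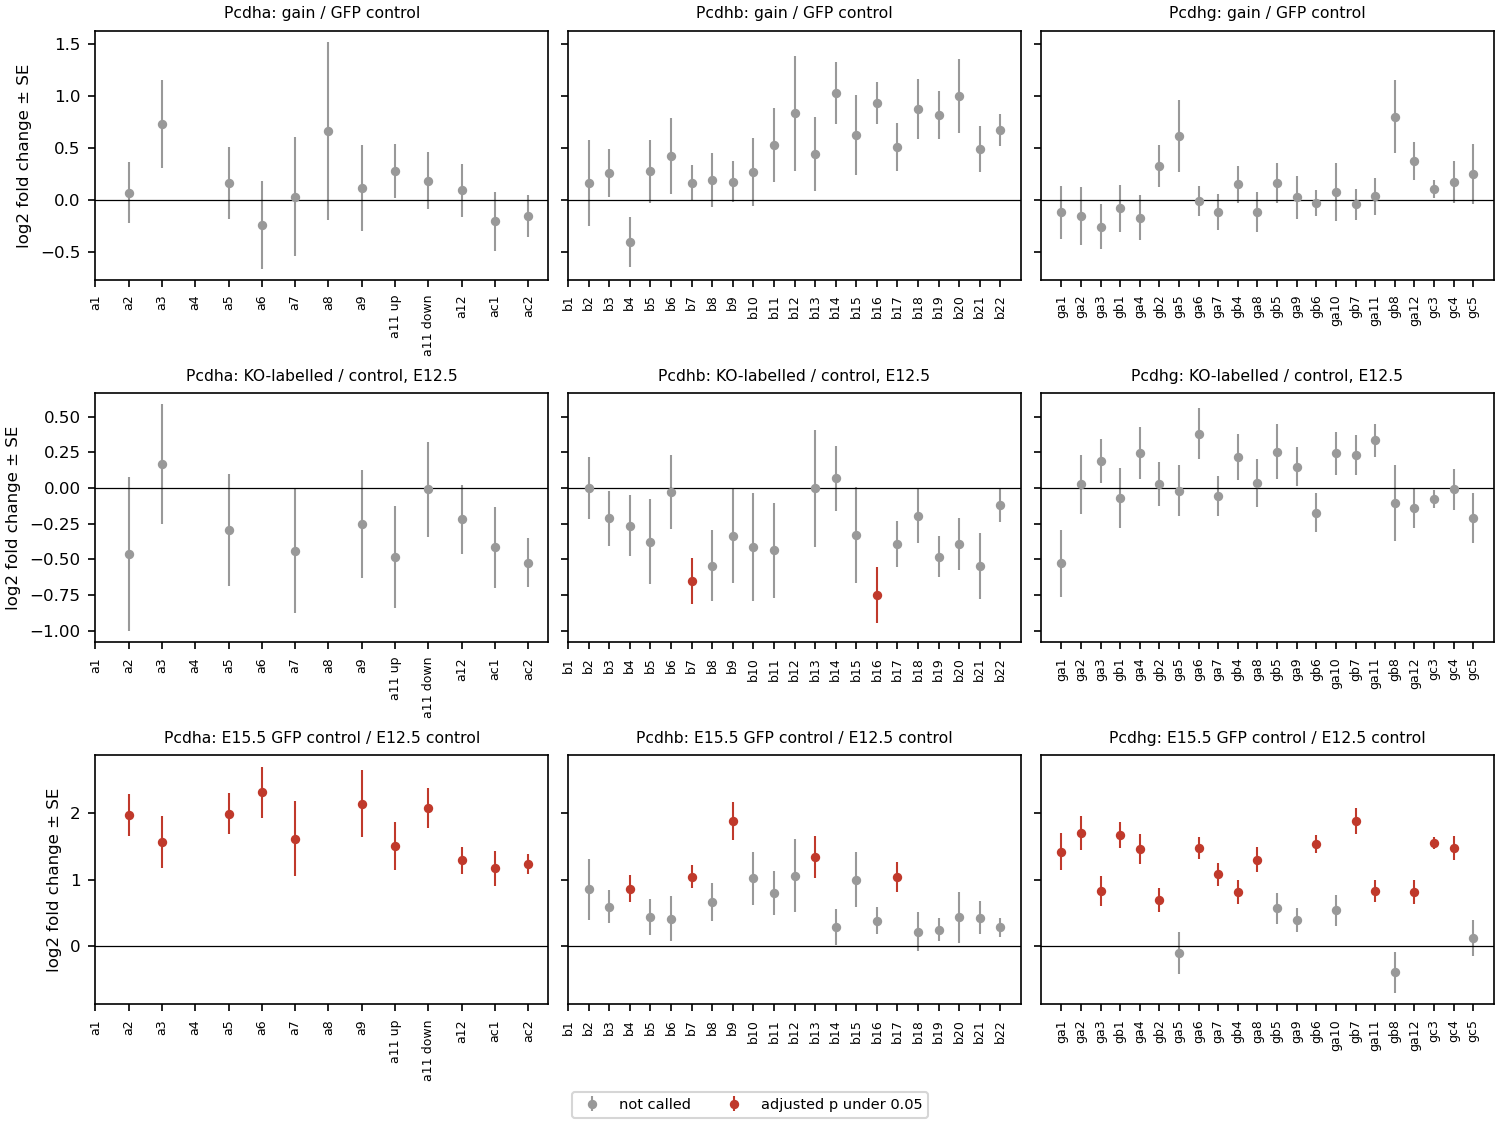
Log2 fold change with its SE for each tested member in order along the a, b and g clusters, for gain over GFP control (upper row), KO-labelled over E12.5 control (middle row) and E15.5 GFP control over E12.5 control (lower row); red marks an adjusted p under 0.05. No member is red for gain, Pcdhb7 and Pcdhb16 are for the KO-labelled tissue, and 32 of 54 are at E15.5.

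The GFP controls were also set against the E12.5 controls, as the only groups without added L3mbtl3 or the knockout label that differ in age. Age, sorting, electroporation and the heterozygous share of the controls differ together here and cannot be told apart. All 11 tested a genes rose in the E15.5 cells, 16 of 22 g genes rose, and 5 of 21 tested b genes rose. No member fell. Some members with few E12.5 counts passed the low-count filter only through their higher counts in the GFP controls. These were Pcdha2, Pcdha3, Pcdha5, Pcdha6 and Pcdha7 in the a cluster and Pcdhb13 in the b cluster. This favours a rise among the a genes tested, and that of Pcdhb13. Of all 15968 tested genes 62.3% were called, with 31.1% risen and 31.3% fallen, so the b share lies near or below that of all genes. Median log2 fold changes were 1.62 for the a genes, 0.96 for the g genes and 0.66 for the b genes, against -0.02 for all genes. Scaling by library totals alone lowered the median of all genes to -0.30 and left the 3 cluster medians at 1.37, 0.69 and 0.38, with 24 a and g genes and 5 b genes risen.

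Among the a genes Pcdha6 had the largest log2 fold change, 2.31 (SE 0.385), from 20 to 38 counts per GFP control library, against 4 to 9 per E12.5 control library. Its E12.5 counts alone would not have passed the low-count filter. It was tested through the GFP controls, where it was high, which favours its rise and its rank. Pcdhac2 had 11.6, 13.1 and 13.5 CPM in the GFP controls, against 5.29, 5.68 and 5.52 CPM in the E12.5 controls (log2 fold change 1.23, SE 0.148, adjusted p = 0.000519 by edgeR). Pcdhac1 rose by 1.18 (SE 0.263). Like Pcdha6, Pcdha2, Pcdha3, Pcdha5 and Pcdha7 were tested only through the GFP controls, where they were high, which favours the next number. The groups were apart, with the GFP controls higher, for 10 of the 11 tested genes, where 34% of all genes were. Pcdha7 was the exception, at 0.594 to 2.46 CPM in the GFP controls and 0.328 to 0.639 CPM in the E12.5 controls, and its call (adjusted p = 0.0421 by edgeR) was lost in 5 of the 6 fits that left out a library.

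In the g cluster Pcdhgc3 had 139, 135 and 156 CPM in the GFP controls, against 48.1, 50.6 and 50.0 CPM in the E12.5 controls. Every GFP control was far above every E12.5 control (log2 fold change 1.55, SE 0.0914, adjusted p = 4.30e-05 by edgeR), and no member had a smaller p. Pcdhgb7 rose by 1.89 (SE 0.193) and Pcdhgb6 by 1.53 (SE 0.137). With these and Pcdhac2, the 10 members with the smallest p held Pcdhga6 (1.48), Pcdhgb1 (1.67), Pcdhgc4 (1.48, SE 0.181), the downstream Pcdha11 (2.07), Pcdhga8 (1.30) and Pcdhb9. Pcdhgc5 did not pass the test (0.13, SE 0.270, adjusted p = 0.703 by edgeR), so 4 of the 5 C-type members rose. Pcdhga5 (-0.10), Pcdhgb8 (-0.39), Pcdhgb5 (0.57), Pcdhga9 (0.40) and Pcdhga10 (0.54) were the other g genes without a call.

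The b genes that rose were Pcdhb4 (0.87, SE 0.199), Pcdhb7 (1.05, SE 0.174), Pcdhb9 (1.88, SE 0.284), Pcdhb13 (1.35, SE 0.316) and Pcdhb17 (1.04, SE 0.229). Pcdhb13 had 11 to 13 counts per E12.5 control library, against 20 to 29 per GFP control library. It was tested only through the GFP controls, where it was high, which favours its rise. Pcdhb9 had 5.13, 4.54 and 4.81 CPM in the GFP controls, against 0.947, 1.75 and 1.32 CPM in the E12.5 controls (adjusted p = 0.00140 by edgeR). It had the largest fold change of the b cluster, with the groups well apart. Groups were apart with the GFP controls higher for 11 of the 21 tested b genes, where 34% of all genes were. Between Pcdhb14 and Pcdhb22 only Pcdhb17 rose, and the median there was 0.38, against 0.86 from Pcdhb2 to Pcdhb13. Longer b genes had lower fold changes (Spearman coefficient -0.72 over 21 genes), where that over all genes was -0.04. The number of b genes risen was 8 without GFP control library 1 or 3, and otherwise 4 to 7 with a library left out. Of all genes 69.3% were called without GFP control library 1, 66.4% without library 3, and otherwise 47.8% to 52.9%. The b-to-a ratio of summed levels was 3.07 to 3.94 in gain libraries, 2.40 to 2.61 in GFP control libraries and 4.39 to 4.79 in E12.5 control libraries.

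The GFP controls serve both this comparison and the gain comparison, so a low value in them enters both with opposite sign. Side by side, Pcdhb16 had log2 fold changes of 0.94 for gain and 0.38 for the E15.5 cells, Pcdhb22 had 0.67 and 0.29, Pcdhb19 had 0.82 and 0.25, and Pcdhb14 had 1.03 and 0.29. Pcdhb9 had 0.18 for gain and 1.88 for the E15.5 cells, and Pcdhb7 had 0.17 and 1.05. The E12.5 controls are likewise shared with the KO-labelled comparison.

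The E15.5 cells differed from the E12.5 tissue in cell types throughout. Of all tested genes 31.1% rose and 31.3% fell. Of 16 pan-neuronal markers 15 rose (median 1.73) and of 10 apical progenitor markers 7 fell (median -1.32). All 8 endothelial, 8 meningeal, 8 choroid plexus, 7 erythroid and 6 Cajal-Retzius markers fell, with medians between -5.67 and -4.01, while 3 of 8 microglial markers fell and 2 of 10 ventral markers rose. Among the apical progenitor markers 2 of 10 had fold changes above 0. Lhx2 and Pax6, transcription factors of cortical progenitors on that list, stood at 246 ± 57.3 and 83.1 ± 39.4 CPM in the GFP controls and at 436 ± 18.5 and 199 ± 7.37 CPM in the E12.5 controls (SD, n = 3 each). Both were thus read in both groups, at lower levels in every GFP control. The part of the cell type shifts in the rise of the protocadherins was not tested.

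Genes known to set protocadherin promoter use were followed from a list of 23. None passed the test in the gain comparison, where Nipbl, the cohesin loader, was at 0.53 (SE 0.200) and Tet1, which removes DNA methylation, at 0.48 (SE 0.257). In the KO-labelled tissue Rest, a repressor of neuronal genes, rose to 63.0 ± 1.04 CPM (SD, n = 2), against 52.5 ± 2.16 CPM (SD, n = 3) in the controls (log2 fold change 0.28, adjusted p = 0.0121 by edgeR). The other 22 listed genes gave no call there, where 7.41% of all genes were called. In the E15.5 cells 15 fell and 4 rose, where 31.3% of all genes fell and 31.1% rose. Dnmt3b, the enzyme that methylates silent protocadherin promoters in mouse, fell by 1.51 on the log2 scale (SE 0.158), and Rest fell by 1.07 (SE 0.137). Ehmt2, a histone H3 lysine methyltransferase, rose by 1.16 (SE 0.0686) and its zinc finger partner Wiz by 0.85 (SE 0.0747).

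Of 20 genes for partners and processing of protocadherins, such as the WAVE complex that binds their tails and the proteases that shed them, none was called in the gain comparison (18 tested). Ptk2, the focal adhesion kinase that protocadherins hold back, was at 0.18 (SE 0.0816) and Brk1, a WAVE subunit, at -0.25 (SE 0.121). In the KO-labelled tissue the WAVE subunit Nckap1 rose to 271 ± 3.21 CPM (SD, n = 2), against 211 ± 3.64 CPM (SD, n = 3) in the controls (0.37, adjusted p = 0.000167 by edgeR). In the E15.5 cells 12 rose and 3 fell, where 31.1% of all genes rose and 31.3% fell. The WAVE members Cyfip2 (1.43, SE 0.0735) and Wasf1 (1.44, SE 0.123), the synaptic adhesion protein Nlgn2 (1.92, SE 0.108) and the kinase Fyn (1.42, SE 0.101) had the smallest p values there.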

How the data were processed

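Each deposited file gives whole-number read counts by gene for 1 library, not normalized. Libraries were stranded, poly(A)-selected and read as single ends of 75 bases, per the labels' protocols. The authors counted with featureCounts 2.0.1 on the reverse strand over an Ensembl GRCm38 annotation, per the file headers. The submitters' processing notes also name HISAT2 2.2.1, SAMtools 1.9, FastQC 0.11.8, CASAVA 1.9 and deepTools 3.3.0. The annotation release is not given in the sources used here. Of 46078 identifiers 45143 (98.0%) had a symbol.

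Here counts were fitted over all genes of each comparison with edgeR 4.0.16 (robust quasi-likelihood, TMM, filterByExpr, two-sided) in R 4.3.3, with Benjamini-Hochberg adjustment over all genes tested. Rose, fell and called mean an adjusted p under 0.05. Each SE was the absolute log2 fold change over the square root of F. Tested were 55, 52 and 54 of the 58 members in the gain, KO-labelled and E15.5 comparisons. Printed CPM carry TMM factors set over all 11 libraries. Replicates are libraries, and groups came from titles. The fit was tested on simulated data. Alternatives were DESeq2 1.42.0, limma 3.58.1 voom with quality weights, other scalings, no filter, a joint fit, the replicate number as a block and each library left out. Named genes were the called members up to the 10 with the smallest p, the C-type members, the 3 highest and 3 lowest per cluster, the 3 smallest p of a cluster without a call, and in each other list up to 4 called genes or else the 2 with the smallest p, except that marker lists are given by counts. Other members are named where a count or the gene order calls for them, chosen after their values were seen. Lhx2 and Pax6 of the marker lists were named outside this rule. The members and lists were chosen with earlier results of these data known.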

Additional observations from a re-analysis of the deposited data

How the results depend on the processing

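The gain comparison called 0 b and 0 a and g members by edgeR, against 2 b members with DESeq2 (0.83% of all genes). Limma voom with quality weights called 5 b and 3 a and g members (14.4% of all genes). Each library left out gave 0 by edgeR. Without GFP control library 1 the number of genes called overall was 415 rather than 2. The 2 b calls in the KO-labelled tissue became 0 with DESeq2, with voom and with heterozygous controls only. They also became 0 with all 11 libraries in 1 fit, which called 6 of 17793 genes (0.0337%), against 7.41% in the reported fit. With a control library left out they were 0 to 3. The a and g calls there were 2 without a filter on low counts, Pcdhac2 lower and Pcdhga11 higher, and 0 with a control library left out. Over these settings the adjusted p of Pcdhb7 ran from 0.00451 to 0.714 and that of Pcdhb16 from 0.00174 to 0.822. In the E15.5 comparison the 5 b calls became 16 with voom, where 77.6% of all genes were called, against 62.3% in the reported fit. They became 8 with all 11 libraries in 1 fit (61.0% of all genes) and 4 to 8 with a library left out (47.8% to 69.3%). The 27 a and g calls became 24 to 29. The causes were not tested. No member called in the reported fits changed sign under these settings. Low counts limit the a cluster most, where 2 to 4 of 14 members could not be tested.

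The values did not settle whether replicate numbers pair the samples. In the gain arm the correlations of same-numbered libraries were 0.18, 0.01 and 0.25. Gain libraries 1 and 3 correlated best with the GFP control of the same number, and gain library 2 with GFP control library 1 (0.11). With the replicate number as a block, 0 b members were called for gain, 2 for the KO-labelled tissue and 7 for E15.5, and 0, 0 and 28 a and g members.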

Other observations

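The nonclustered protocadherins, single genes outside the 3 clusters that act in cell sorting and axon growth, differed from gene to gene in their values. None of the 11 tested passed the test in the gain libraries by edgeR, where Pcdh1 had 32.1, 30.1 and 25.5 CPM, against 55.8, 38.8 and 39.8 CPM in the GFP controls (log2 fold change -0.62, SE 0.176), and Pcdh8 was at 0.37 (SE 0.144). In the KO-labelled tissue 2 of 12 rose, where 594 of all 16361 tested genes did. Pcdh7 had 47.5 and 46.6 CPM in the KO-labelled libraries, against 33.8, 34.8 and 31.8 CPM in the controls (0.51, SE 0.0585, adjusted p = 0.000478 by edgeR), and Pcdh11x was at 0.63 (SE 0.163, adjusted p = 0.0437). In the E15.5 GFP controls 5 of 12 rose and 5 fell relative to the E12.5 controls, where 31.1% of all genes rose and 31.3% fell. Pcdh8 rose by 3.68 and Pcdh9 by 1.55, while Pcdh18 fell by 1.15 and Pcdh12, which endothelial cells use, had 0.0757 ± 0.0911 CPM in the GFP controls and 17.4 ± 0.563 CPM in the E12.5 controls (SD, n = 3 each).

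Classical cadherins and catenins, 12 genes of calcium-dependent adhesion, gave no call in the gain comparison (11 tested, median -0.01) or in the KO-labelled tissue (12 tested, median 0.02). The smallest p values for gain were those of Cdh8 (0.30, SE 0.0865) and Ctnna2 (0.16, SE 0.0888), and those in the KO-labelled tissue were Cdh13 (-0.78, SE 0.209) and Cdh11 (0.27, SE 0.0860). In the E15.5 cells 7 rose and 3 fell, where 31.1% of all genes rose and 31.3% fell. Cdh8 was at 2.95, Cdh4 at 2.91, Ctnna2 at 1.61 and Ctnnd2 at 1.93.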
